A study of Sus scrofa with 8 samples.

Results

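The miR-34 and miR-449 family was measured in the corpus luteum of pigs, a transient ovarian gland that makes progesterone. Its members were the miRNA targets on the array named miR-34 or miR-449, whatever the species, letter or arm. They were 7 of the 686 targets on the array (17 of 1683 probes, and 140 of 13720 spots on each array): ssc-miR-34a, ssc-miR-34c, hsa-miR-34b-3p, hsa-miR-34c-3p, mmu-miR-34b-5p, hsa-miR-449a and hsa-miR-449b-5p. The prefixes ssc, hsa and mmu mark porcine, human and mouse entries of the array design.

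The cyclic group held luteal tissue of 4 gilts on day 14 of the estrous cycle that had not been inseminated. The pregnant group held tissue of 4 gilts on day 14 of pregnancy, inseminated 12 and 24 hours after their second estrus was seen. All were crossbred gilts of 6 to 8 months from the same commercial herd, with no gene or drug manipulation in either group. The RNA of each sample was hybridised alone to a 1-colour Agilent array, and how pregnancy was checked is not given in the sources used here. Whole luteal tissue was used, so its steroidogenic, vascular, connective and immune cells were measured together, and fewer cells of a type and less RNA per cell cannot be told apart.

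miR-34a, miR-34b and miR-34c are known as direct transcriptional targets of the tumour suppressor p53, and lower the level of cell cycle and survival proteins such as CDK6 and BCL2. miR-34a has a gene of its own, while miR-34b and miR-34c are cut from a shared transcript. In the porcine RefSeq gene table (Sscrofa11.1), MIR34C-1 is listed beside BTG4 and C9H11orf88. The miR-449 miRNAs are processed from an intron of CDC20B, carry the same seed as miR-34a and miR-34c, and are known for high levels in multiciliated epithelium. The corpus luteum of a gilt that is not pregnant regresses late in the cycle with death of luteal cells, and is kept in pregnancy. The comparison asked whether this family differed between the 2 states.

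Of the 7 targets, ssc-miR-34a was detected on every array and hsa-miR-34b-3p on 2 cyclic arrays, while the other 5 were detected on none, beside 64.9% of all 686 targets detected on none. ssc-miR-34a was at nearly the same level in both groups, with a difference of 0.08 ± 0.13 on the log2 scale (SE, n = 4 per group). hsa-miR-34b-3p was faint, and its intensity was higher on all 4 cyclic arrays than on any pregnant array. After scaling between arrays, 4.52% of all 686 targets showed this order and another 4.52% the opposite one. Under another background correction or another scaling the groups of hsa-miR-34b-3p overlapped. Its difference did not pass in a limma fit across targets (adjusted p = 0.214). Detection on an array required that a share of 0.5 or more of the spots of the target's brightest probe be flagged well above background by the scanner software.

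**Figure D1:**
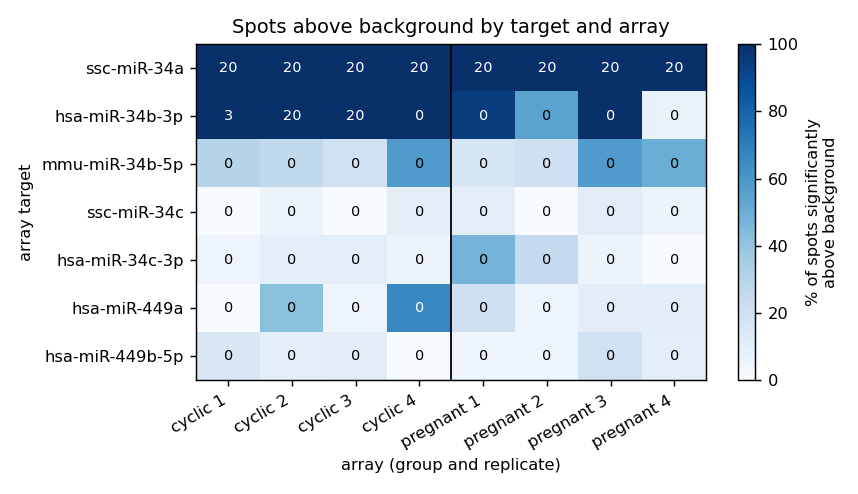
Spots of each family target (rows) on each of the 8 arrays (columns, cyclic left of the line and pregnant right). The colour gives the percentage of spots, over all probes of a target and without outlier spots, that the scanner software called significantly above background, and the number in each cell counts the spots that passed its stricter call of well above background. All 20 spots of ssc-miR-34a passed on every array, and those of hsa-miR-34b-3p did on cyclic arrays 2 and 3.

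The arrays differed in sensitivity. The fewest targets, 181, were detected on pregnant replicate 4, and the lowest scaled signal of a detected probe was 0.0547 there against 0.0292 on cyclic replicate 4. The share of spots well above background ran from 22.8% to 28.8%, and 0 spots were saturated. Slide 1 carried pregnant replicates 1 and 2 only, slide 2 carried cyclic replicates 1 and 2 only, and slide 3 carried the remaining 4 arrays, 2 per group. The scan of slide 1 took place on a day of its own. miR-202, a miRNA enriched in gonads, was present as ssc-miR-202-3p on all 8 arrays, and 0 of the 8 muscle and liver targets were detected on any.

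The guide strand miR-34a is the family member with the widest tissue distribution. The brighter of its probes, averaged over 10 spots, gave intensities of 499, 579, 336 and 597 on cyclic replicates 1 to 4. On pregnant replicates 1 to 4 it gave 461, 570.2, 619.5 and 392. These intensities are on the scanner's linear scale and are not yet scaled between arrays. The lowest value, on cyclic replicate 3, and the next lowest, on pregnant replicate 4, came from the arrays whose 75th percentile of intensity over targets detected on all arrays was lowest as well (193 and 189, against 229 to 316 on the others).

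Each array was therefore divided by that 75th percentile and log2 was taken. The scaled level of ssc-miR-34a was then 1.12, 0.96, 0.80 and 0.92 on cyclic replicates 1 to 4. It was 0.74, 1.27, 1.04 and 1.06 on pregnant replicates 1 to 4. The groups overlapped: the lowest array and the highest array were both pregnant, and all 4 cyclic arrays lay between them. The means were 0.95 ± 0.13 in the cycle and 1.03 ± 0.22 in pregnancy (SD, n = 4).

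**Figure D2:**
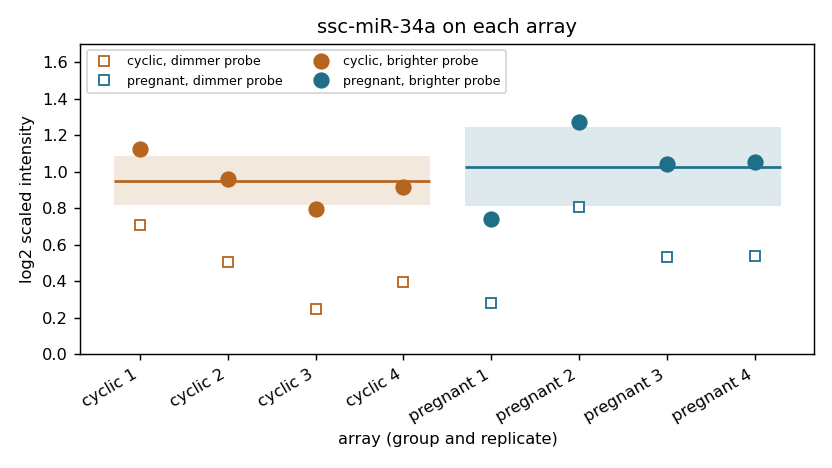
Scaled log2 intensity of ssc-miR-34a (y axis) on each array (x axis), with filled circles for the brighter probe and open squares for the dimmer one. Lines and bands give the mean ± SD of the brighter probe over the 4 arrays of a group. The pregnant arrays span 0.74 to 1.27 and enclose all 4 cyclic values.

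The difference of 0.08 is a 1.05-fold higher level in pregnancy, with a 95% confidence interval from 0.860-fold to 1.29-fold. It did not pass the limma test (adjusted p = 0.760 by Benjamini-Hochberg over the 211 targets detected on at least 4 arrays). An exact 2-sided permutation test over the 70 splits of the 8 arrays gave p = 0.571, where 0.0286 is the smallest p the design allows. Among all tested targets 24 (11.4%) passed, 11 higher (5.21%) and 13 lower (6.16%) in pregnancy, and the median difference was 0.01. The count moved with single arrays, to 81 without cyclic replicate 1, to 12, 7 and 11 without cyclic replicates 2, 3 and 4, and to 10, 9, 11 and 7 without pregnant replicates 1 to 4. Scaled to the 75th percentile over all probes, 55 targets were higher and 7 lower, around a median difference raised to 0.31. Without scaling 3 were higher and 6 lower, and with the scanner's total gene signal 5 and 11.

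The spread of ssc-miR-34a within the groups, an SD of 0.18 on the log2 scale, was below the median of 0.23 over the tested targets, and 23.2% of these had a smaller one. Its probes gave the same picture. The dimmer one ran below the brighter by 0.41 to 0.55 on the log2 scale on every array, and the correlation of the log2 intensities of both probes over the 8 arrays was r = 0.993, for probes that read the same RNA on the same slides. The coefficient of variation between the spots of a probe was 4.49% to 8.68%. With the dimmer probe the group difference was 0.07.

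Within slide 3, which held both groups, ssc-miR-34a read 0.80 and 0.92 on the cyclic arrays and 1.04 and 1.06 on the pregnant arrays. The difference there was 0.19 ± 0.17 (SE, n = 2 per group, limma adjusted p = 0.503). The other slides held 1 group each. On slide 1 the pregnant arrays read 0.74 and 1.27, the lowest and the highest value of the series. Without the latter array, pregnant replicate 2, the sign of the difference turned (−0.00429). Of 26 other settings 25 gave a positive difference and 0 passed, with adjusted p from 0.118 to 0.986. These settings are not independent checks of the sign. Changes to the filter or floor, the replicate block and the limma fit without trend left the difference of this bright target unchanged. Slide as a fixed block repeated the value within slide 3, and scan day as a block repeated that within the shared scan day. The highest value, 0.38, came from the scaling over all probes, which moved ssc-miR-34a and the median of all tested targets alike. Other settings raised the difference with little move of that median. Quantile normalization gave 0.26 (median 0.04, limma adjusted p = 0.198), and the authors' deposited table gave 0.20 (median 0.04, limma adjusted p = 0.365). Without scaling between arrays the difference was lower, at 0.03 (median −0.04).

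**Figure D3:**
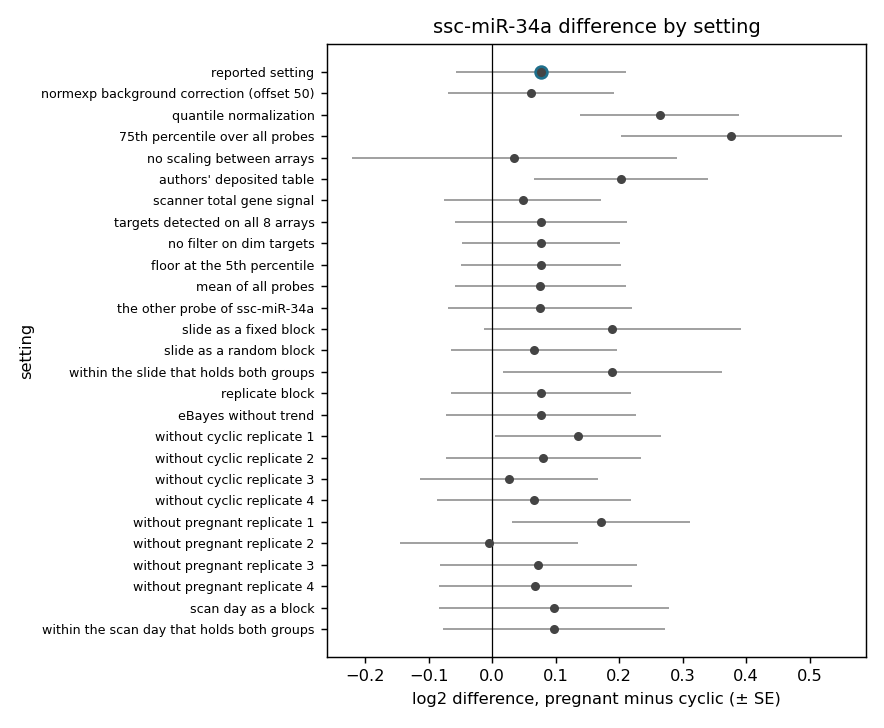
Difference of ssc-miR-34a between the groups (x axis, log2, pregnant minus cyclic, bars ± SE) under the reported setting (top) and 26 others (y axis). Values run from −0.00429 to 0.38, and the reported value is 0.08.

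The 3p strand of miR-34b was represented by a human entry. Probe and mature sequences were not used here, so the match of the human and mouse entries to the porcine RNA was not examined. hsa-miR-34b-3p had intensities of 8.17, 17.3, 27.8 and 6.49 on cyclic replicates 1 to 4 (brighter probe, unscaled). On pregnant replicates 1 to 4 they were 5.38, 2.24, 4.46 and −0.336. The groups did not overlap, but the dimmest cyclic array (6.49) and the brightest pregnant array (5.38) were closer than the SD between their spots of 2.23 and 2.19. The negative control spots, which match no RNA of the animal, averaged 0.400 to 1.33 on the 8 arrays, with an SD of 1.45 to 1.96.

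The spots themselves show how far the signal rose above background. On cyclic replicates 2 and 3 all 20 spots were well above background, with spot intensities from 13.8 to 21.3 and up to 32.8 respectively. On cyclic replicate 1 there were 3 such spots of 20 and on cyclic replicate 4 there were 0. On pregnant replicates 1 to 4 there were 0 of 20, 20, 18 and 15 spots kept after outliers. By the less strict call of significantly above background, all 20 spots passed on each cyclic array, against 19, 11, 18 and 1 on the pregnant arrays.

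**Figure D4:**
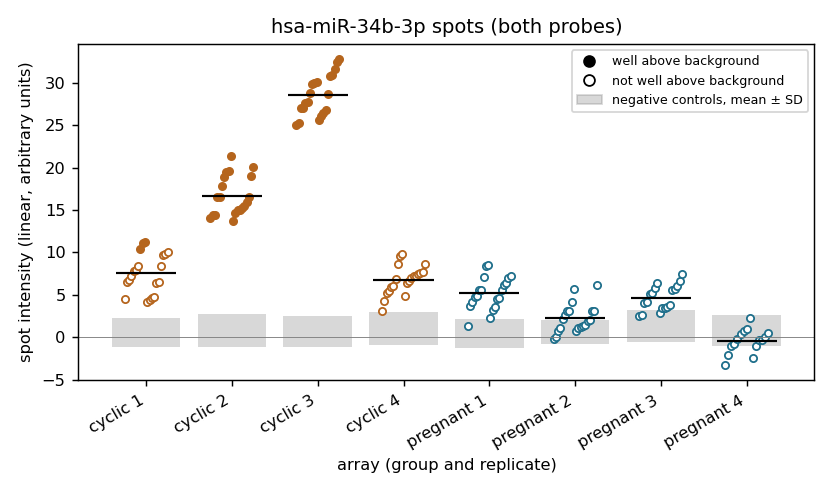
Intensity of every spot of both hsa-miR-34b-3p probes (y axis, linear) on each array (x axis), without outlier spots. Filled points were well above background, black lines give the mean over spots, and grey bands give the mean ± SD of the negative control spots. Cyclic replicates 2 and 3 stand clear of the other arrays, and cyclic replicates 1 and 4 lie close to pregnant replicates 1 and 3.

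By the detection rule, hsa-miR-34b-3p was present on 2 of 4 cyclic and 0 of 4 pregnant arrays (Fisher's exact test, 2-sided, p = 0.429). With 1 spot well above background as the rule it was 3 and 0 (Fisher's exact p = 0.143). The scanner software's own call for a target, which combines its probes, was positive on 4 of 4 cyclic and 0 of 4 pregnant arrays (Fisher's exact p = 0.0286, the smallest possible). This call was taken up after the values were seen. Of the 686 targets 1 (0.146%) showed this split, hsa-miR-34b-3p itself, and 0 showed the opposite one. By the main rule, 11 targets (1.60%) were detected on at least 2 cyclic and 0 pregnant arrays, and 5 (0.729%) the other way round.

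Scaled to the array's 75th percentile, hsa-miR-34b-3p averaged 0.0646 ± 0.0551 in the cycle and 0.0105 ± 0.00918 in pregnancy (linear, SD, n = 4). The difference of −0.0541 gave an exact permutation p of 0.0286, a test chosen after the values were seen and not adjusted over targets. Cyclic arrays all lay above pregnant arrays in 31 of the 686 targets (4.52%), and in another 31 the order was the opposite. The pregnant arrays give no detected level. Set against the lowest signal among detected probes of each pregnant array, the cyclic mean of hsa-miR-34b-3p (log2) was 1.36-fold higher. Only 2 of the 4 cyclic arrays were measured above background. The others entered at their own values, below the lowest signal of a detected probe on their arrays, so the ratio is not a strict bound. It rested on cyclic replicate 3, without which the ratio was 0.954.

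The difference did not pass in a fit across targets. With targets detected on at least 2 arrays admitted (230 targets), its floored log2 values differed by −0.72 ± 0.38 (limma adjusted p = 0.214), and 5 of its 8 values stood at the floor. Cyclic replicate 3 carried much of the size: without it the difference in scaled intensity was −0.0276. Without pregnant replicate 4, the least sensitive array, it was −0.0500. Within slide 3 the scaled means were 0.0823 on the cyclic and 0.00652 on the pregnant arrays (exact permutation p = 0.333, the smallest that 2 against 2 arrays can give). Groups that are apart on all arrays stay apart on any part of them, so these subsets do not test the separation.

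In the authors' deposited table, which holds log2 values centred for every spot, hsa-miR-34b-3p stood at 0.70, 1.36, 2.60 and −0.10 on cyclic replicates 1 to 4. On pregnant replicates 1 to 4 it stood at −0.22, −1.30, −0.44 and −2.14. The groups did not overlap there either (exact permutation p = 0.0286), by a margin between cyclic replicate 4 and pregnant replicate 1 that was smaller than any other gap between neighbouring arrays. Under scaling over all probes the groups overlapped (exact permutation p = 0.0571), as they did after normexp background correction (exact permutation p = 0.457). That correction started from median spot signals and added an offset of 50, which compresses faint signals. The part of each step was not tested.

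The opposite arm of the same hairpin, mmu-miR-34b-5p, a mouse entry, was detected on 0 arrays. Its brighter probe read 0.179 to 4.55 over the 8 arrays, and the ranges of both groups overlapped. miR-34c, which is cut from the same transcript as miR-34b, had a porcine entry and a human entry for the 3p arm. ssc-miR-34c ran from −1.36 to 0.889 over its probes and arrays, with both probe means below the mean of the negative controls on 8 of 8 arrays, and hsa-miR-34c-3p ran from −2.20 to 2.62. No array had a spot of ssc-miR-34c well above background. Of the products of this transcript on the array, the 3p arm of miR-34b was the only one detected on any array by the rule above.

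The miR-449 entries, both human, were likewise not detected. hsa-miR-449b-5p read −1.05 to 0.783 over its 3 probes and hsa-miR-449a −1.03 to 3.18. As neither was detected, no comparison between the groups can be made for them, and a low level of either miRNA was not detectable.

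Other cell types of the tissue could move with such a result, and their markers were read on the same arrays. Of 16 epithelial targets, 12 were detected on no array, among them every entry of miR-200a, miR-200b, miR-200c, miR-429, miR-205 and miR-375 (64.9% of all targets on the array were detected on none). The summed scaled intensity of the list ran from 0.353 to 0.402 on cyclic replicates 2 to 4, was higher on cyclic replicate 1, and ran from 0.274 to 0.412 on the pregnant arrays. The 4 tested ones did not pass: ssc-miR-182 differed by −0.14, hsa-miR-141-3p by 0.04, ssc-miR-96-5p by −1.0 and hsa-miR-203a-3p by −0.46 (limma adjusted p from 0.0697 to 0.938). The miR-449 entries, family members known for high levels in multiciliated epithelium, had 0 spots well above background among those kept. Some hsa-miR-449a spots on cyclic replicates 2 and 4 passed the less strict call. No marker of multiciliated cells outside the family was read.

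The 8 leukocyte targets summed to 0.365 to 4.21 on cyclic and 0.472 to 0.538 on pregnant arrays, and 4 of them were detected on no array. Of the 4 tested, 0 passed (lowest limma adjusted p = 0.0757): ssc-miR-150 differed by 0.01, mmu-miR-342-3p by −0.10, ssc-miR-142-5p by −0.65 and hsa-miR-223-3p by −2.29. The neutrophil and monocyte miRNA hsa-miR-223-3p read −3.16, −0.33, −0.02 and 1.74 on cyclic replicates 1 to 4 and −2.84 to −2.65 on the pregnant arrays (log2). On cyclic replicates 1 to 3 hsa-miR-34b-3p and hsa-miR-223-3p stood in the same order, while on cyclic replicate 4 hsa-miR-34b-3p was at its dimmest in the cyclic group and hsa-miR-223-3p at its brightest.

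The 4 fibroblast targets summed to 2.70, 3.39, 6.41 and 4.62 on cyclic replicates 1 to 4 and to 2.74 to 3.23 on the pregnant arrays. Of the 3 tested, 0 passed: ssc-miR-199a-3p differed by −0.53, ssc-miR-199a-5p by −0.51 and ssc-miR-214 by 0.11. The sum was highest on cyclic replicate 3, where hsa-miR-34b-3p was brightest as well. The 7 luteal and gonadotropin-responsive targets summed to 1.75, 3.01, 2.79 and 2.98 on the cyclic arrays and to 1.71 to 2.06 on the pregnant arrays. Of the 4 tested, 3 had positive differences and did not pass: ssc-miR-31 (0.35), ssc-miR-378 (0.41) and mmu-miR-31-3p (0.01). The 1 that passed was ssc-miR-132, which was lower in pregnancy (−1.35 ± 0.38, limma adjusted p = 0.0436). Leaving out any 1 of 7 arrays ended this call (limma adjusted p from 0.0759 to 0.132), and it held without cyclic replicate 1. The part of leukocytes, fibroblasts, smooth muscle, pericytes, endothelial or luteal cells in the hsa-miR-34b-3p result was not tested.

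Other miRNAs tied to p53 are transcribed with its help (miR-192, miR-194, miR-215, miR-107, miR-22, miR-141 and others) or matured with it (miR-143, miR-145 and miR-16). Of 23 such targets on the array, 13 were detected on no array, including all entries of miR-192, miR-194 and miR-215. Of the 10 tested, 0 passed in either direction, against 11.4% of all tested targets. An unadjusted p below 0.05 was reached by 1 of the 10, against 34.6% of all tested targets. Their median difference was −0.01, with 5 positive and 5 negative values from −0.38 to 0.29, beside the median of 0.01 over all tested targets.

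The 4 brightest of these were ssc-miR-22-3p, ssc-miR-16, ssc-miR-107 and ssc-miR-143-3p. ssc-miR-22-3p differed by 0.10 ± 0.11, ssc-miR-16 by −0.05 ± 0.15 and ssc-miR-143-3p by −0.15 ± 0.15. ssc-miR-107, which lies in a pantothenate kinase gene, differed by 0.29 ± 0.13 (limma adjusted p = 0.134). Its difference was 0.37 without cyclic replicate 1 (adjusted p = 0.0229) and 0.59 with scaling over all probes (adjusted p = 0.0188), where the median of all tested targets was 0.31.

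**Figure D5:**
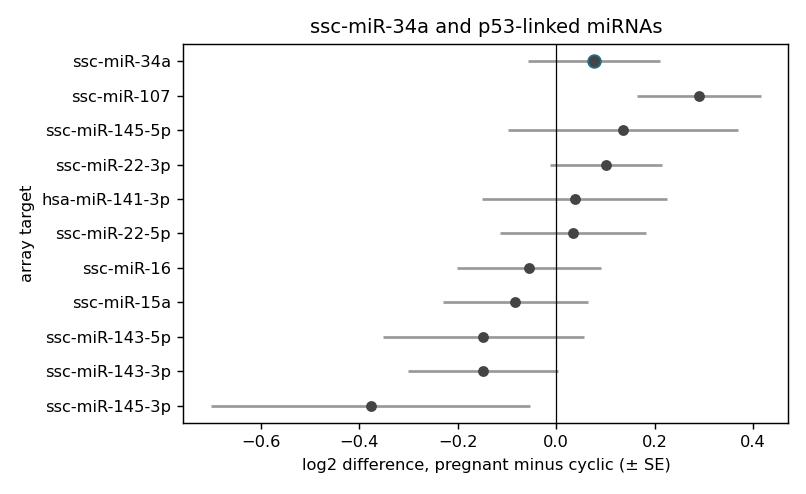
Difference between the groups (x axis, log2, pregnant minus cyclic, bars ± SE, n = 4 per group) for ssc-miR-34a (top) and the 10 tested p53-linked targets (y axis). Values of the 10 run from −0.38 to 0.29, and 0 of them passed.

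The tested targets whose profile over the 8 arrays was most like that of ssc-miR-34a, by Pearson correlation of scaled log2 intensity, were bta-miR-500 (r = 0.718), ssc-miR-202-3p (0.656), ssc-miR-532-5p (0.650), hsa-miR-32-5p (0.621) and ssc-miR-30a-5p (0.620). All values share the scaling of their array. The choice was not stable: after quantile normalization 1 of these 5 was still among the leading 5, and by Spearman correlation 0 were. None of the 5 passed the group comparison, with differences of 0.01 to 0.74 and limma adjusted p from 0.110 to 0.968.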

How the data were processed

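Luteal RNA (100 ng, integrity number above 8) of 4 cyclic and 4 pregnant gilts was labelled with Cy3, per the labels. The deposited scanner files hold linear spot intensity, corrected for background and spatial trend with Agilent Feature Extraction (10.7.3.1 per the file headers, 10.7 per the submitters' processing notes). The authors' deposited table holds log2 values centred for every spot, with scaling unknown. Its columns for cyclic replicates 2 and 4 are treated as a deposited score, because 3 of their cells exceed 100; those cells were read as missing.

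Control spots were left out. Spots of a probe were averaged without outlier spots, but outlier spots counted in the share of spots used for detection. Arrays were divided by the 75th percentile over targets detected on all arrays. Values were floored at 0.0344, the 1st percentile of detected probes, and log2 was taken. The brightest probe stood for a target. The 211 targets detected on at least 4 arrays were tested with limma 3.58.1 (trend, 2-sided, R 4.3.3) at an adjusted p of 0.05. On simulated data with 211 targets, 18 of 20 true log2 differences of 1 and 20 of 20 of 2 were recovered. The simulated noise was independent between targets, without slide, scan-day or array effects, so these rates need not hold for the real arrays. The number of arrays limits the precision. Alternatives changed the background correction, scaling, filter, floor, probe, slide and scan-day blocks, and left out each array. Named targets were the family, passing or the 4 brightest members of the p53-linked and epithelial lists, and the 5 targets most like ssc-miR-34a. The tested members of the leukocyte, fibroblast and luteal lists were named as well, and hsa-miR-223-3p was named after its values were seen. Members and lists were chosen with earlier results of these data known.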

Additional observations from a re-analysis of the deposited data

Results flagged for a closer look

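Outlying arrays were sought in 30 groups of 4 arrays by Dixon's test, which flags about 1 in 20 by chance. It was met in 2 groups, 1 of them through the floor alone. ssc-miR-182, an epithelial miRNA of the miR-183 cluster, read −2.27 on cyclic replicate 1 against −3.19 to −3.14 on the other cyclic arrays (log2). Its cluster companion ssc-miR-96-5p read −3.54 on pregnant replicate 1, while the other pregnant arrays stood at the floor of −4.86; with 3 values tied, any value above the floor would meet the criterion, so this is no test result.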

How the results depend on the processing

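The difference of ssc-miR-34a kept its sign and stayed short of the threshold in 25 of 26 other settings. Several of these could not change the difference or repeated the value of another setting. With 1 array left out it ran from −0.00429 to 0.17. Replicate numbers are shared between the groups. The deviations of same-numbered arrays correlated at 0.103, 0.0988, −0.177 and 0.160, and those of differently numbered arrays at −0.169 to 0.189. So few values cannot decide whether the numbers mark pairs. With a replicate block the difference was 0.08 ± 0.14 (limma adjusted p = 0.778), 27 targets passed, and 0 p53-linked targets did. The count of passing targets, 24, became 11 with normexp, 15 with quantile normalization, 62 with scaling over all probes, 9 without scaling, 11 with a floor at the 5th percentile, 2 with scan day as a block and 2 within the shared scan day; it ran from 7 to 81 with 1 array left out. Without a filter on dim targets limma passed 0, with 71 at an unadjusted p below 0.05. The p53-linked count became 1 with scaling over all probes and ran from 0 to 1 with 1 array left out, the target being ssc-miR-107. By the scanner's call hsa-miR-34b-3p was detected on 4 arrays. With 1 spot of the brightest probe as the rule, outlier spots included, hsa-miR-34c-3p was detected on 1 array and mmu-miR-34b-5p on 2. The difference of hsa-miR-34b-3p lost its exact permutation call with scaling over all probes (−1.46), with normexp (−0.21, log2), within slide 3 (−0.0757) and within the shared scan day (−0.0581), the last 2 having too few arrays to reach the threshold. With 1 array left out it ran from −0.0688 to −0.0276. Leaving out an array cannot make separated groups overlap. The exact p, with the smaller tail doubled, was therefore fixed at 0.0571, its minimum for 3 against 4 arrays. With splits counted by absolute difference instead, the exact p was 0.0286 without any 1 cyclic array and 0.0857 to 0.143 without any 1 pregnant array. Scan day, the scanner's call, the filter at 2 arrays and all settings for hsa-miR-34b-3p were chosen after seeing the data. The dimmest detected probe of an array had an intensity of 8.36 to 11.4, which limits what can be said of the 6 faint family targets.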

Other observations

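Among the family targets that were not detected, faint spots were unevenly spread. Of the spots of hsa-miR-449a kept after outliers, 42.1% on cyclic replicate 2 and 66.7% on cyclic replicate 4 were called significantly above background, against 0% to 21.1% on the other 6 arrays. Their mean intensities there were 1.04 ± 2.74 and 2.30 ± 1.93 (SD between 19 and 18 spots), where the negative control spots averaged 0.786 and 1.05. For mmu-miR-34b-5p the share was highest on cyclic replicate 4 and pregnant replicate 3 (57.9% each), and for hsa-miR-34c-3p on pregnant replicate 1 (47.4%). No spot of these 3 targets that was kept after outliers was well above background.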
